A study of Mus musculus with 24 samples.

Results

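The 48 genes described here encode factors of cytosolic translation in mouse: 40 initiation factors named Eif, the 5 elongation factor genes Eef1a1, Eef1b2, Eef1d, Eef1g and Eef2, the poly(A) binding protein genes Pabpc1 and Pabpc4, and Tpt1. They were taken by symbol from a deposited table of read counts that holds 49568 gene symbols, and all 48 were present. No cutoff on a measured value was applied, but the choice was made with earlier results of these data known. The table was made from NIH/3T3 cells, a line of mouse embryonic fibroblasts grown in culture. One arm was treated with halofuginone at 100 nM for 24 h at 37 °C, and the other received the PBS vehicle for the same time. Halofuginone blocks the prolyl site of EPRS, the enzyme that charges both glutamyl and prolyl tRNA, and so mimics a shortage of charged prolyl tRNA.

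From each arm, total RNA was sequenced beside RNA from 3 pools of a polysome gradient. The ribosome-free pool held free mRNPs and ribosomal subunits, the light pool started at monosomes, and the heavy pool held mRNAs with more than 5 ribosomes. This gave 8 groups of 3 libraries, listed as halofuginone total, free, light and heavy and vehicle total, free, light and heavy, which the study's design text calls biological triplicates. By their column headers the 24 libraries fall into 2 sets. Set A holds 1 library of each group (8 in all), and its halofuginone headers name 50 nM where the sample labels give 100 nM; its heavy pool joined fractions 7 to 11. Set B holds the other 16, headed replicate 2 and replicate 3 (total RNA) or replicate 4 (pools), with a heavy pool of fractions 14 to 21 and no dose in the headers. Values by library are given in the order set A, replicate 2, then replicate 3 or 4. The p-values below measure the spread between these libraries.

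Initiation of translation begins when eIF2 brings the initiator tRNA to the small ribosomal subunit, with eIF1, eIF1A, eIF3 and eIF5 governing scanning and start codon choice. The eIF4 proteins bind the cap and unwind the leader, PABPC1 on the poly(A) tail contacts eIF4G, and eIF2B recharges eIF2 with GTP after each round. When uncharged tRNA accumulates, the kinase GCN2 phosphorylates eIF2alpha and thereby inhibits eIF2B. During elongation, eEF1A delivers aminoacyl tRNA, the eEF1B subunits (encoded by Eef1b2, Eef1d and Eef1g) exchange its nucleotide, and eEF2 drives translocation. Many elongation factor mRNAs, Pabpc1 and Tpt1 are classed as TOP mRNAs, which start with a C followed by a pyrimidine tract and whose translation depends on mTOR and LARP1.

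Libraries held between 10.3 and 24.97 megacounts, and the 48 genes took between 2.53% and 4.37% of them. Counts from mitochondrial transcripts took up to 32.9% of a halofuginone ribosome-free library and up to 34.9% of a vehicle one, against at most 0.746% of a halofuginone heavy library and 0.394% of a vehicle one. All 7 fibroblast markers examined averaged 5 CPM (counts normalised to library size, per megacount) or more in total RNA. None of 6 epithelial, 6 leukocyte or 5 endothelial markers did, and of 5 adipocyte markers only Fabp4 and Lpl did. Levels are CPM after scaling by the trimmed mean of M values within a kind of RNA, so they are shares of the sequenced mRNA; fewer cells and less RNA per cell cannot be told apart, and neither can the absolute amount of RNA in a pool. For positions on the gradient, CPM were scaled over all pools together.

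Compared per kilobase of exon in total RNA, Eef1a1 and Eef2 stood at the top of the 48, and Eif2b4, Eif2d and Eif3j1 among the lowest in both arms. Eef1a1 was the most abundant, at 2629 ± 1031 CPM per kb in halofuginone cells and 3133 ± 51.6 CPM per kb in vehicle cells (SD, n = 3 each). Eef2 followed at 993 ± 556 CPM per kb in halofuginone cells and 1285 ± 98.5 CPM per kb in vehicle cells. Tpt1, whose product is the translationally controlled tumour protein, was the third in both arms, with 727 ± 54.8 CPM per kb in halofuginone cells and 559 ± 42.9 CPM per kb in vehicle cells. In vehicle cells Eef1g (370 ± 60.9), Eif5a (362 ± 24.96), Eef1b2 (316 ± 43.6) and Pabpc1 (284 ± 4.48 CPM per kb) came next, and the first 3 of these lay within each other's spread. Eif5a encodes eIF5A, which helps the ribosome join prolines. Eef1d was the low elongation factor, at 56.8 ± 5.66 CPM per kb in halofuginone cells and 43.9 ± 6.59 CPM per kb in vehicle cells. Part of that gap comes from the divisor, since its merged exons span 6488 bases, against 2532 for Eef1b2. In vehicle cells Eef1d had 285 CPM before division by length, and Eef1b2 had 801 CPM. After Eif5a, the most abundant Eif genes in vehicle cells were the helicase gene Eif4a1 (267 ± 47.5 in halofuginone cells, 201 ± 4.28 CPM per kb in vehicle cells) and its partner Eif4b (176 ± 59.0 in halofuginone cells, 195 ± 11.3 CPM per kb in vehicle cells). In halofuginone cells Eif1 (303 ± 117) and Eif3c (290 ± 122 CPM per kb) stood above both. Near the other end stood Eif2b3, which encodes a subunit of the catalytic subcomplex of eIF2B, with 14.5 ± 7.95 CPM per kb in halofuginone cells and 4.79 ± 0.152 CPM per kb in vehicle cells. Eif3j1 was lowest in both arms, at 4.52 ± 2.46 CPM per kb in halofuginone cells and 1.70 ± 0.318 CPM per kb in vehicle cells; it shares nearly all its sequence with Eif3j2, so its count is uncertain. A total of 10 members share exon positions with a gene on the same strand, such as Snord66 in Eif4g1 and Snora28 in Eif5, and 12 with a gene on the opposite strand, such as Banf1 for Eif1ad and Ndufs1 for Eef1b2, where the strand setting of the counting was not given in the sources used here.

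**Figure D1:**
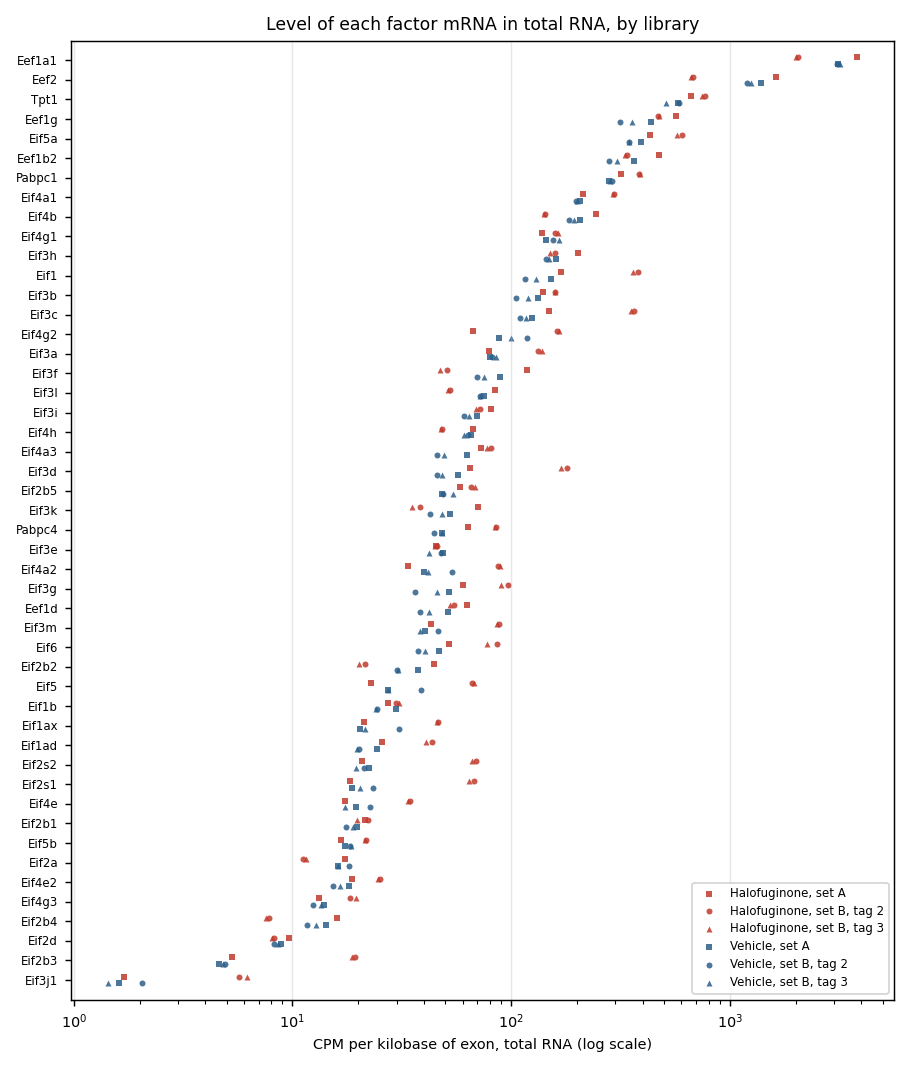
Level of each of the 48 factor mRNAs in total RNA, in CPM per kilobase of merged exons on a log axis, 1 point per library (halofuginone red, vehicle blue), ordered by the vehicle mean. Eef1a1 and Eef2 lie highest, Eif3j1 lowest, and the halofuginone libraries of set B stand apart from the vehicle libraries for many genes, among them Eif3d, Eif3c, Eif1 and Eif2s2.

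With all libraries, no factor mRNA passed the test for halofuginone against vehicle in total RNA. In edgeR's quasi-likelihood test 0 of 48 had an adjusted p under 0.05, as did 0% of the 13020 genes tested. At an unadjusted p under 0.05 there were 17 of 48, against 17.6% of all genes, and DESeq2 called 5 (Eif1, Eif2b3, Eif3c, Eif3d and Pabpc4), against 3.96% of all genes. The median log2 fold change was 0.39 for the 40 initiation factors, with 31 above 0, and 0.32 for the 5 elongation factors and Pabpc1 together, with 4 of 6 above 0, while over all genes it was 0.02. By library, the ratios had a wider range in set B than in set A. In set A the ratios of halofuginone to vehicle lay between -0.40 and 0.42 on the log2 scale over the 48 genes. In set B they ran from -0.82 to 1.97 for replicate 2 and from -0.92 to 2.04 for replicate 3. Header tags did not pair the total RNA libraries (same-tag deviations from group means correlated 0.009 at the least). The halofuginone libraries of set B were also nearly alike, so the same-tag pairs are not independent comparisons. A total of 25 members were higher with halofuginone in all 3 pairs of the same header tag, against 22% of all genes, and 0 were lower in all 3, against 21.8%. Another 10 were higher with halofuginone in set A and lower in both set B pairs, and 10 were lower in set A and higher in both set B pairs. The share of all genes with either of these patterns was not computed, so they cannot be read as a trait of the members.

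Both member genes for subunits of eIF2, which carries the initiator tRNA, were lower with halofuginone in set A and higher in both set B pairs. Eif2s1, encoding eIF2alpha, had 90.7, 334 and 318 CPM with halofuginone, against 93.1, 115 and 101 CPM in vehicle cells. Eif2s2, encoding eIF2beta, had 140, 467 and 449 CPM with halofuginone, against 152, 143 and 132 CPM in vehicle cells. In both genes the halofuginone library of set A lay inside or below the vehicle range, and those of set B lay above every vehicle library. Over all libraries the log2 fold changes were 1.28 ± 0.48 for Eif2s1 and 1.31 ± 0.45 for Eif2s2 (SE), with edgeR adjusted p-values of 0.271 and 0.267. Eif2a and Eif2d, whose products can deliver initiator tRNA without eIF2, lay closer to 0: Eif2a had 107, 68.5 and 70.4 CPM with halofuginone, against 98.5, 112 and 98.6 CPM in vehicle cells, a fitted log2 change of -0.32 ± 0.21 (edgeR adjusted p = 0.403), and that of Eif2d was 0.02 ± 0.14.

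The 5 genes of eIF2B, the exchange factor of eIF2, lay at both ends of the range. Eif2b3 had the highest log2 fold change of the 48, at 1.60 ± 0.48 (edgeR adjusted p = 0.267), with 34.6, 127 and 122 CPM under halofuginone, against 30.2, 32.2 and 31.3 CPM in vehicle cells. All 3 halofuginone libraries lay above the vehicle range, the set A library by the least. Its partner Eif2b4 was among the lowest, at -0.30 ± 0.32, with 41.5, 20.2 and 19.8 CPM under halofuginone and 36.8, 30.4 and 33.3 CPM in vehicle cells. Eif2b2 (-0.19 ± 0.33), Eif2b1 (0.18 ± 0.14) and Eif2b5 (0.35 ± 0.14) lay between them, none past the test.

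Of the 13 genes for eIF3, the scaffold on the small subunit, 10 had log2 fold changes above 0. Eif3d, whose product can itself bind the cap, had 323, 898 and 844 CPM with halofuginone, against 284, 228 and 241 CPM in vehicle cells. Eif3c had 523, 1282 and 1245 CPM with halofuginone, against 439, 387 and 413 CPM in vehicle cells. Neither gene's groups overlapped, and their log2 fold changes were 1.46 ± 0.40 and 1.31 ± 0.35 (edgeR adjusted p = 0.267 for both; DESeq2 adjusted p = 0.0289 and 0.0329). Eif3j1 stood at 1.42 ± 0.49. Eif3f went the other way in set B: it had 342, 147 and 137 CPM under halofuginone, against 256, 203 and 217 CPM in vehicle cells, so that 1 halofuginone library lay above and the others below the vehicle range.

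Factors of scanning and of the cap complex are encoded by several pairs of paralogs. Eif1, the gatekeeper of start codon choice, had 354, 796 and 759 CPM with halofuginone, against 318, 242 and 274 CPM in vehicle cells, a fitted log2 change of 1.20 ± 0.34 (edgeR adjusted p = 0.267, DESeq2 0.0426). Its paralog Eif1b had 30.7, 33.3 and 34.5 CPM with halofuginone and 33.4, 27.4 and 27.1 CPM in vehicle cells, with overlapping groups and a fitted log2 change of 0.17 ± 0.16. The helicase genes stood at 0.42 ± 0.18 for Eif4a1 and 0.64 ± 0.38 for Eif4a2, and the cap-binding genes at 0.53 ± 0.29 for Eif4e and 0.46 ± 0.18 for Eif4e2. The scaffold genes were at -0.01 ± 0.15 for Eif4g1, 0.37 ± 0.36 for Eif4g2 and 0.37 ± 0.19 for Eif4g3. Eif4h, a helicase cofactor, was at -0.22 ± 0.18 and Eif4b at -0.15 ± 0.25.

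The elongation factors with the highest levels, Eef2 and Eef1a1, were among the 4 members with the lowest values. Eef2 had 5436, 2264 and 2206 CPM with halofuginone, against 4638, 4006 and 4173 CPM in vehicle cells, which gave the lowest log2 fold change of the 48, -0.37 ± 0.38 (edgeR adjusted p = 0.566). Eef1a1 had 9520, 5140 and 4999 CPM with halofuginone, against 7823, 7676 and 7933 CPM in vehicle cells, a fitted log2 change of -0.25 ± 0.28 (edgeR adjusted p = 0.601). For both genes the set A halofuginone library was above every vehicle library and the set B ones below. The 3 exchange factor genes lay on the other side, at 0.27 ± 0.21 for Eef1b2, 0.38 ± 0.18 for Eef1d and 0.45 ± 0.19 for Eef1g. Pabpc1 had 2071, 2522 and 2542 CPM with halofuginone and 1830, 1889 and 1858 CPM in vehicle cells, all 3 above the vehicle range, with a fitted log2 change of 0.36 ± 0.16 (edgeR adjusted p = 0.296). Pabpc4 had 257, 344 and 339 CPM with halofuginone and 196, 180 and 195 CPM in vehicle cells, a fitted log2 change of 0.73 ± 0.17 (edgeR adjusted p = 0.267, DESeq2 0.0175), and Tpt1 was at 0.38 ± 0.16.

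**Figure D2:**
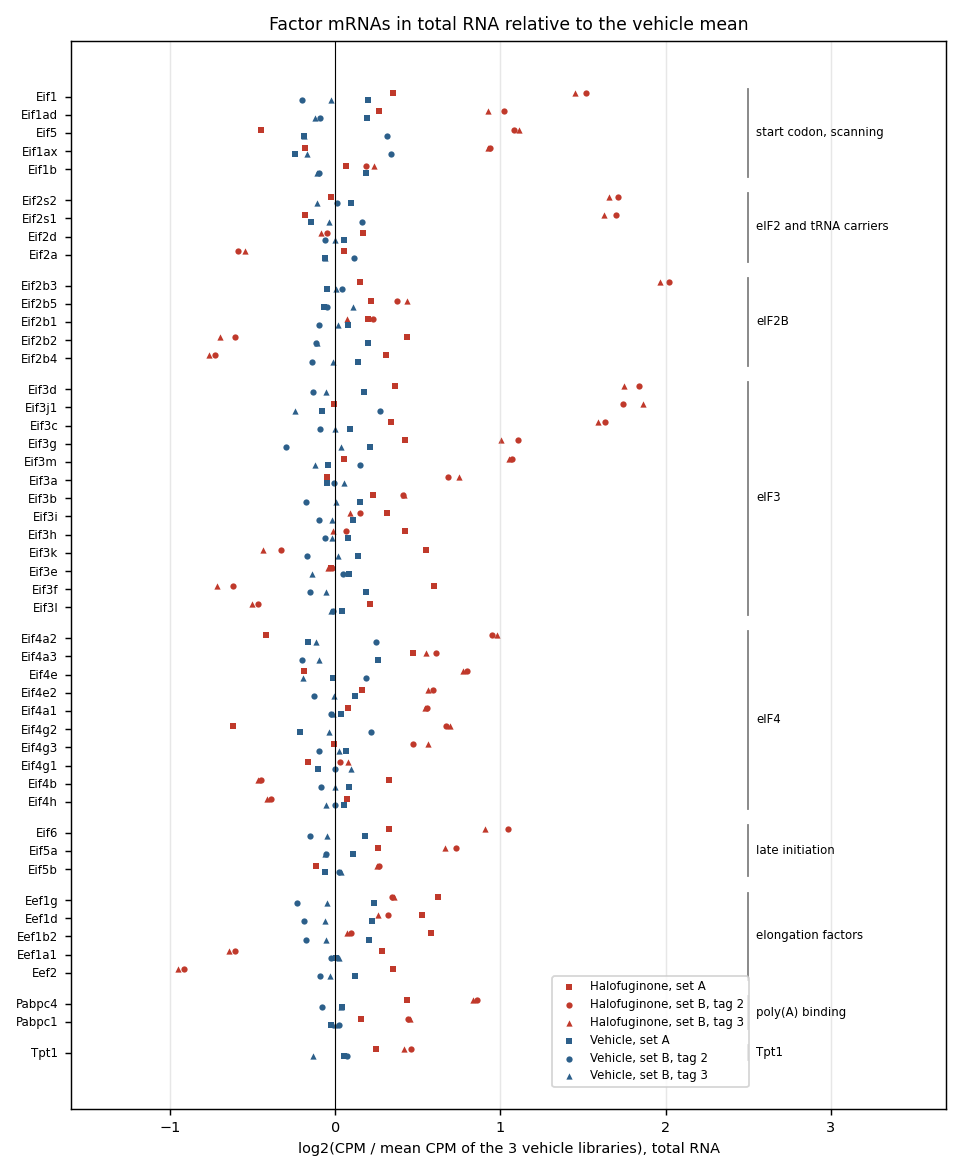
Each factor mRNA in total RNA as log2 of its CPM over the mean of the 3 vehicle libraries, 1 point per library (halofuginone red, above; vehicle blue, below), grouped by role. The halofuginone points of set B are highest for Eif2b3 and lowest for Eef2, and those of set A span a narrower range over the 48 genes.

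Within set B alone, where 2 libraries stood against 2, most members passed the test. A total of 31 of 48 rose with halofuginone, against 33.1% of the 13334 genes tested, and 10 of 48 fell, against 36.9%. Of the 40 initiation factors 26 rose and 8 fell, and their median log2 fold change was 0.55. Of the 5 elongation factors with Pabpc1, 3 rose and 2 fell, and their median was 0.28; the median over all genes was -0.02. The largest increases were Eif2b3 (1.94 ± 0.08, edgeR adjusted p = 6.34e-07), Eif3d (1.86 ± 0.08), Eif3j1 (1.72 ± 0.16), Eif2s2 (1.70 ± 0.08), Eif3c (1.63 ± 0.07), Eif2s1 (1.57 ± 0.09) and Eif1 (1.56 ± 0.08). Eif5, whose product triggers GTP hydrolysis on eIF2, rose by 0.98 ± 0.15 on the log2 scale, and Eif6, which keeps the ribosomal subunits apart, by 1.05 ± 0.08. The 10 that fell were Eef2 (-0.90 ± 0.07, edgeR adjusted p = 1.99e-05), Eif2b4 (-0.70 ± 0.09), Eef1a1 (-0.65 ± 0.07), Eif2a (-0.63 ± 0.08), Eif3f (-0.59 ± 0.08), Eif2b2 (-0.57 ± 0.08), Eif3l (-0.50 ± 0.07), Eif4b (-0.45 ± 0.07), Eif4h (-0.40 ± 0.07) and Eif3k (-0.34 ± 0.09). Eef1d, Eef1g and Pabpc1 rose by 0.38 ± 0.08, 0.45 ± 0.08 and 0.40 ± 0.07. Eef1b2 was at 0.17 ± 0.07 (edgeR adjusted p = 0.0723) and did not pass. Leaving out only the halofuginone set A library gave 38 members called, but the share over all genes was not computed for that setting. The 2 halofuginone libraries of set B were very close to each other, their counts differing by a chi-square that averaged 3.12 over genes (sampling noise alone gives about 1), while the vehicle libraries of set B differed by 21.1, so the errors in this fit rest on a narrow spread that may be technical. Set A, with 1 library a group, allowed no test; dose in the headers and set cannot be told apart. In the same fit 6 of the 7 fibroblast markers fell and 1 rose, and both measured adipocyte markers fell. Over all total RNA libraries the fibroblast markers summed to 13650.6 to 17362.6 CPM with halofuginone and 16873.0 to 19673.5 CPM in vehicle cells, and the adipocyte markers to 86.7 to 168.0 CPM with halofuginone and 139.0 to 282.5 CPM in vehicle cells; their part in the result was not tested.

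In heavy polysomes the members again lay mostly above 0 with halofuginone, without passing the test. edgeR called 0 of 48 and 0% of 12222 genes; at an unadjusted p under 0.05 there was 1 (Eif1ad), against 6.17% of all genes, and DESeq2 called 0, against 0.638%. The median log2 fold change was 0.26 for the initiation factors, with 34 of 40 above 0, and 0.39 for the elongation factors with Pabpc1, with 5 of 6 above 0, while over all genes it was 0.02. In all 3 pairs of the same tag 24 members were higher, against 21.5% of all genes, and 2 were lower, against 24%. Eif3c had the highest value, 1.31 ± 0.59 (edgeR adjusted p = 0.81), with 855, 219 and 1235 CPM in halofuginone heavy pools, against 406, 191 and 328 CPM in vehicle heavy pools. Replicate 2 of the halofuginone pools lay well below the other libraries of that arm for this gene. Eif3d showed the same, with 686, 218 and 1274 CPM in halofuginone heavy pools and 450, 285 and 404 CPM in vehicle heavy pools (log2 fold change 0.93 ± 0.56). Eif2b3 stood at 0.80 ± 0.53 and Eif2s2 at 0.74 ± 0.35.

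For the elongation factors in the same pools, Eef1b2 had 1578, 1232 and 2014 CPM with halofuginone and 1311, 882 and 878 CPM in vehicle cells, a fitted log2 change of 0.64 ± 0.29 (edgeR adjusted p = 0.81). Eef1g stood at 0.60 ± 0.36, Eef1d at 0.54 ± 0.33 and Eef1a1 at 0.17 ± 0.31. Eef2 had 3365, 2277 and 3318 CPM with halofuginone and 3517, 2607 and 3003 CPM in vehicle cells, overlapping groups with a fitted log2 change of -0.04 ± 0.25. Pabpc1 stood at 0.24 ± 0.23 and Pabpc4 at 0.50 ± 0.32. The lowest values were Eif2b4 (-0.27 ± 0.29), Eif4h (-0.25 ± 0.45), Eif4a2 (-0.10 ± 0.21) and Eif2d (-0.07 ± 0.40).

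The light and ribosome-free pools gave no calls either. In light polysomes edgeR called 0 of 48 and 0% of 12632 genes, with 1 member (Eif3c) at an unadjusted p under 0.05, against 4.27%, and DESeq2 called 0, against 0.309%. There 18 members were higher in all 3 pairs, against 21.5%, and 1 was lower, against 23%. The highest values were Eif3c (1.03 ± 0.39), Eif2s1 (1.00 ± 0.51), Eif2s2 (0.84 ± 0.46) and Eif4g3 (0.69 ± 0.32), and the lowest Eif2b4 (-0.31 ± 0.26), Eef2 (-0.29 ± 0.36), Eif3e (-0.27 ± 0.47) and Eif4h (-0.27 ± 0.51). Pabpc1 stood at 0.57 ± 0.35, Eef1b2 at 0.32 ± 0.25, Eef1d at 0.30 ± 0.41, Eef1g at 0.24 ± 0.27 and Eef1a1 at -0.07 ± 0.39. In the ribosome-free pool edgeR called 0 of 48 and 0% of 11960 genes, no member reached an unadjusted p under 0.05, against 0.251%, and DESeq2 called 0 members and 0% of genes. There 14 members were higher in all 3 pairs, against 13.1%, and 2 were lower, against 15%. All 6 of the elongation factors and Pabpc1 had values above 0 in that pool, with Eef1a1 at 0.15 ± 0.39, Eef1g at 0.38 ± 0.36 and Pabpc1 at 0.38 ± 0.59, and the highest value was that of Pabpc4, 0.46 ± 0.37. The lowest were Eif4h (-0.21 ± 0.79), Eif2a (-0.19 ± 0.35), Eif4a2 (-0.18 ± 0.48) and Eif3j1 (-0.17 ± 0.37).

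Whether the halofuginone effect differed between pools was tested directly. For heavy polysomes minus total RNA, edgeR called 0 of 48 and 0% of 13459 genes, no member had an unadjusted p under 0.05, against 0.951%, and DESeq2 called 0 members, against 0.00743%. All 5 elongation factors had differences above 0, from 0.17 ± 0.45 for Eef1g to 0.43 ± 0.45 for Eef1a1, with Eef1b2 at 0.39 ± 0.38, Eef2 at 0.34 ± 0.47 and Eef1d at 0.19 ± 0.40, while Pabpc1 stood at -0.11 ± 0.27. The initiation factors had a median difference of -0.14, with 26 of 40 below 0. The lowest were Eif3j1 (-1.21 ± 0.64), Eif2b3 (-0.79 ± 0.77), Eif1 (-0.74 ± 0.49) and Eif4a2 (-0.73 ± 0.44), and the median of the elongation factors with Pabpc1 exceeded that of the initiation factors by 0.40, which was 0.65 without the halofuginone set A total RNA library and 0.23 and 0.22 without replicates 2 and 3 of halofuginone total RNA. For heavy polysomes minus the ribosome-free pool, edgeR called 0 of 48 and 0% of 13053 genes, no member had an unadjusted p under 0.05, against 0.406%, and DESeq2 called 0 members and 0% of genes. In that contrast 42 of 48 members lay above 0, with a median of 0.27 against 0.08 over all genes, led by Eif3c (0.96 ± 0.74), Eif2b3 (0.95 ± 0.75) and Eif3d (0.91 ± 0.79).

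Summed over members, elongation and initiation mRNAs were set beside each other in the 8 groups. The 5 elongation factors and Pabpc1 together gave 20120, 12360 and 12160 CPM in halofuginone total RNA, against 16680, 15350 and 15940 CPM in vehicle total RNA. Most of this sum came from Eef1a1 and Eef2, with means of 7811 and 4272 of 15990 CPM in vehicle total RNA. Eef1b2, Eef1d, Eef1g and Pabpc1 were higher with halofuginone in all 3 same-tag pairs, so the sum does not describe every gene in it. The 40 initiation factors gave 11650, 16690 and 16480 CPM in halofuginone total RNA, against 11150, 10970 and 10850 CPM in vehicle total RNA. The ratio of the elongation sum to the initiation sum was thus 1.73 in halofuginone set A and 0.741 and 0.738 in halofuginone set B, against 1.496, 1.40 and 1.47 in vehicle cells, so the halofuginone libraries lay on both sides of the vehicle range. In ribosome-free RNA the ratio was 2.29 ± 0.901 with halofuginone and 2.03 ± 0.535 in vehicle cells (SD, n = 3 each). In light polysomes it was 1.73 ± 0.826 with halofuginone, of which replicate 4 alone was at 0.926, and 1.91 ± 0.198 in vehicle cells. In heavy polysomes it was 1.09 ± 0.101 with halofuginone and 1.15 ± 0.103 in vehicle cells.

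**Figure D3:**
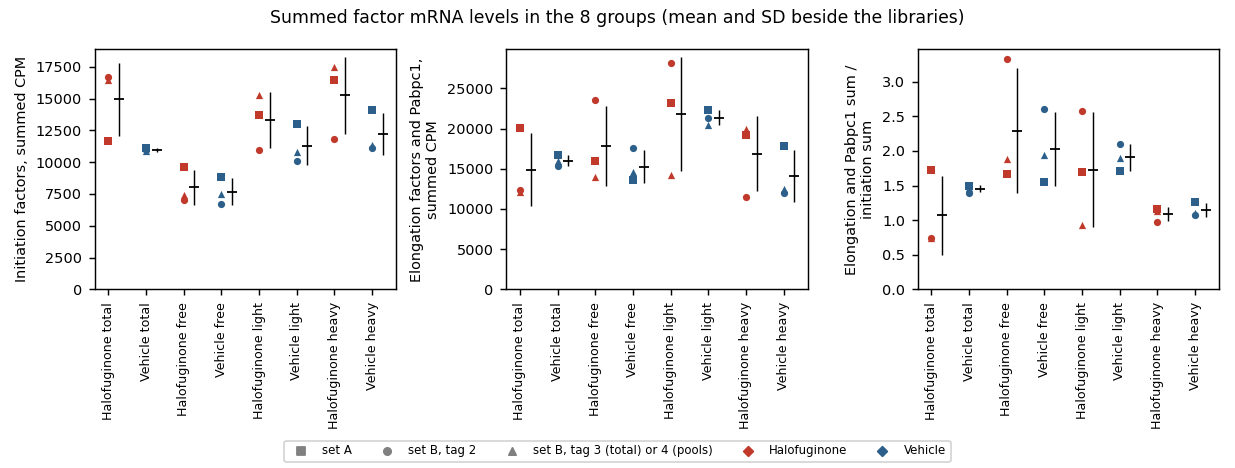
Summed CPM of the 40 initiation factors, summed CPM of the 5 elongation factors and Pabpc1, and the ratio of these sums, in the 8 groups (points are libraries; bars beside them are mean and SD, n = 3). The halofuginone total RNA libraries split into 1 above and the others below the vehicle ratios of 1.40 to 1.496, and in vehicle cells the heavy pools have the lowest ratios. In total RNA most of the elongation sum comes from Eef1a1 and Eef2.

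The members spread widely along the gradient, with Pabpc1, Tpt1 and Eif3f lowest and Eif4g1 and Eif3b high in heavy polysomes of both arms. In halofuginone cells, heavy polysomes against the ribosome-free pool gave 3 higher members, against 8.47% of 12238 genes, and 5 lower, against 12.6%. In vehicle cells the same contrast gave 3 higher members, against 11.9% of 12225 genes, and 7 lower, against 17.7%. Pabpc1 had the lowest value in both arms. It had 728, 688 and 759 CPM in the heavy pool and 4290, 8770 and 2616 CPM in the ribosome-free pool of halofuginone cells, a fitted log2 change of -3.01 ± 0.52 (edgeR adjusted p = 0.00459). In vehicle cells it had 686, 584 and 565 CPM in the heavy pool and 2539, 6336 and 3094 CPM in the ribosome-free pool, a fitted log2 change of -2.94 ± 0.49 (edgeR adjusted p = 0.00382). In both arms the pools did not overlap, and replicate 2 had the most ribosome-free Pabpc1. Pabpc4, the paralog, stood at -0.36 ± 0.44 in halofuginone cells and -0.50 ± 0.35 in vehicle cells and did not pass in either.

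Tpt1 lay at the same end, with log2 fold changes of -2.80 ± 0.48 in halofuginone cells and -2.91 ± 0.46 in vehicle cells (edgeR adjusted p = 0.00476 and 0.00317). Eif3f, a TOP mRNA among the eIF3 subunits, had 287, 294 and 341 CPM in the heavy pool and 883, 1189 and 1252 CPM in the ribosome-free pool of halofuginone cells, a fitted log2 change of -2.01 ± 0.41 (edgeR adjusted p = 0.00895). In vehicle cells it had 262, 275 and 268 CPM in the heavy pool and 809, 1045 and 1122 CPM in the ribosome-free pool, a fitted log2 change of -2.14 ± 0.37 (edgeR adjusted p = 0.00429). Eif4a2 (-1.59 ± 0.42 in halofuginone cells, -1.74 ± 0.43 in vehicle cells) and Eif3h (-1.38 ± 0.43 in halofuginone cells, -1.68 ± 0.39 in vehicle cells) also passed in both arms. Eef1b2 passed in vehicle cells (-1.69 ± 0.45, edgeR adjusted p = 0.0223) and stood at -1.24 ± 0.44 in halofuginone cells (edgeR adjusted p = 0.0669). Eif1b passed in vehicle cells (-1.39 ± 0.35), and in halofuginone cells, at -1.15 ± 0.44, it passed only with the header tag as a block (edgeR adjusted p = 0.0381). Its paralog Eif1 stood at -0.67 ± 0.46 in halofuginone cells and -1.09 ± 0.43 in vehicle cells.

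At the heavy end stood Eif4g1, the scaffold of the cap complex. It had 529, 256 and 545 CPM in the heavy pool and 121, 74.4 and 42.1 CPM in the ribosome-free pool of halofuginone cells, a fitted log2 change of 2.33 ± 0.54 (edgeR adjusted p = 0.0143). In vehicle cells it had 549, 298 and 273 CPM in the heavy pool and 94.9, 48.7 and 38.3 CPM in the ribosome-free pool, a fitted log2 change of 2.34 ± 0.52 (edgeR adjusted p = 0.0114). Its relatives Eif4g2 (0.45 ± 0.46 in halofuginone cells, 0.24 ± 0.48 in vehicle cells) and Eif4g3 (0.48 ± 0.47 in halofuginone cells, 0.41 ± 0.43 in vehicle cells) did not pass. Eif3b, an eIF3 core subunit, stood at 1.71 ± 0.52 in halofuginone cells and 1.47 ± 0.47 in vehicle cells and passed in both. Eif3c passed in halofuginone cells (2.03 ± 0.61, edgeR adjusted p = 0.0386) and stood at 1.07 ± 0.40 in vehicle cells (edgeR adjusted p = 0.0701), and Eif2b2 passed in vehicle cells (1.08 ± 0.35, edgeR adjusted p = 0.0458) and stood at 1.08 ± 0.38 in halofuginone cells (edgeR adjusted p = 0.0677). Eif6 was at 1.66 ± 0.57 in halofuginone cells and 1.31 ± 0.57 in vehicle cells, and Eif4h at 1.44 ± 0.59 and 1.36 ± 0.68. Between the ends, Eef1a1 was at -0.53 ± 0.42 in halofuginone cells and -0.63 ± 0.43 in vehicle cells, Eef1g at -0.72 ± 0.45 and -1.03 ± 0.40, Eef1d at 0.89 ± 0.59 and 0.44 ± 0.63, and Eef2 at -0.17 ± 0.45 and -0.05 ± 0.45, none past the test.

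The medians of the classes followed the same order in both arms for heavy polysomes over the ribosome-free pool. In halofuginone cells the elongation factors with Pabpc1 had a median of -0.62 and the initiation factors one of 0.41, against 0.02 over all genes. In vehicle cells the medians were -0.83 for elongation with Pabpc1 and 0.15 for initiation, against -0.02 over all genes. With the header tag as a block, which the pairing of the pools calls for, halofuginone cells gave 7 higher members, against 13.4% of genes, adding Eif2b3, Eif4a3, Eif4h and Eif6, and 6 lower, against 16.9%, adding Eif1b. In vehicle cells the block added Eif4a3 (edgeR adjusted p = 0.0436), Eif4h (0.0134) and Eif6 (0.0301) to the higher members. The share of all genes called was not computed for this block fit in vehicle cells, nor for the fits below that left out a library. The count of calls also moved with single libraries. In halofuginone cells it was 20 without the set A ribosome-free library, 2 without the set A heavy library, and 3 without replicate 2 or 4 of the ribosome-free pool or replicate 4 of the heavy pool. In vehicle cells it was 27 without the set A ribosome-free library and 4 without any of the heavy libraries in turn. The share of mitochondrial counts, at most 0.746% in heavy and at least 8.686% in ribosome-free libraries, differs between the same pools, and its part in these values was not tested.

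**Figure D4:**
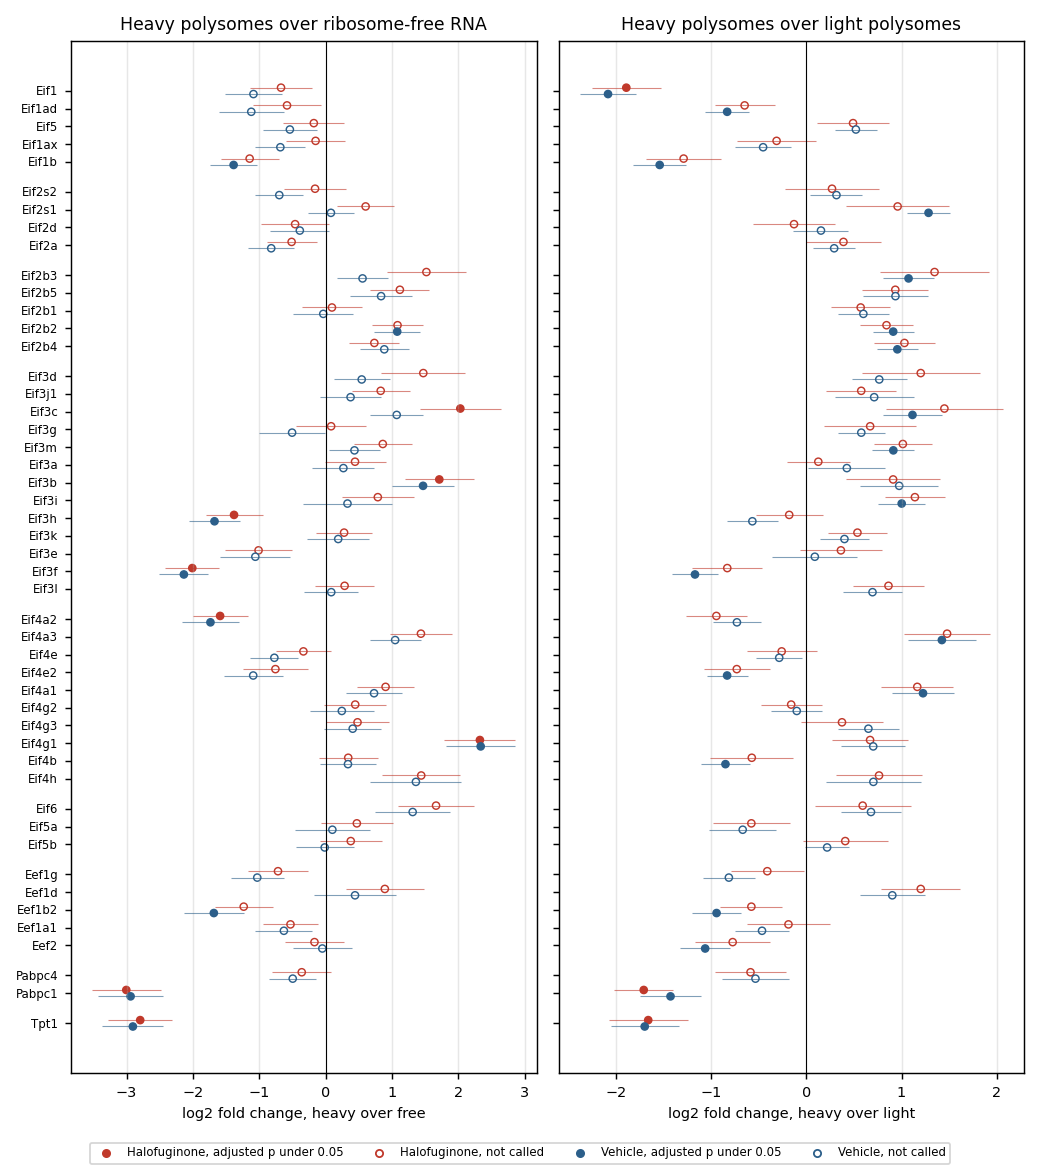
Log2 fold change of each factor mRNA, heavy polysomes over the ribosome-free pool (left) and over light polysomes (right), in halofuginone cells (red, above) and vehicle cells (blue, below), with SE; filled points have an edgeR adjusted p under 0.05. Pabpc1, Tpt1 and Eif3f lie near -3 to -2 on the left in both arms, and Eif4g1 lies near 2.3.

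Against light polysomes, heavy polysomes of both arms held lower shares of Eif1, Pabpc1 and Tpt1. In halofuginone cells no member was higher, against 1.9% of 12310 genes, and 3 were lower (Eif1, Pabpc1 and Tpt1), against 7.05%, by edgeR. Counting both directions, 17 of 48 had an unadjusted p under 0.05, against 29.2% of all genes, and DESeq2 called 12, against 18.3%. With the header tag as a block the same contrast gave 20 higher members, against 25.8% of genes, and 9 lower, against 26.5%. In vehicle cells 9 members were higher, against 13.7% of 12586 genes, and 10 lower, against 18.1%, and with the block 22 were higher, against 31.8%, and 15 lower, against 32.6%. Eif1 had the lowest value. It had 230, 402 and 376 CPM in the heavy pool and 1110, 1051 and 1532 CPM in the light pool of halofuginone cells, a fitted log2 change of -1.89 ± 0.36 (edgeR adjusted p = 0.0225). In vehicle cells it had 172, 333 and 235 CPM in the heavy pool and 1000, 1034 and 951 CPM in the light pool, a fitted log2 change of -2.09 ± 0.30 (edgeR adjusted p = 0.00344). Eif1 codes for only 113 amino acids, as does Eif1b, which stood at -1.29 ± 0.40 in halofuginone cells (edgeR adjusted p = 0.0739) and -1.54 ± 0.28 in vehicle cells (edgeR adjusted p = 0.00737).

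Pabpc1 stood at -1.71 ± 0.31 in halofuginone cells and -1.43 ± 0.33 in vehicle cells, and Tpt1 at -1.66 ± 0.42 and -1.70 ± 0.36, all past the test. Eef2 had 2822, 2027 and 2917 CPM in the heavy pool and 4935, 5712 and 2392 CPM in the light pool of halofuginone cells, where replicate 4 ran against the others, and its log2 fold change was -0.78 ± 0.39 (edgeR adjusted p = 0.223). In vehicle cells Eef2 had 2960, 2354 and 2656 CPM in the heavy pool and 4628, 5147 and 6120 CPM in the light pool, a fitted log2 change of -1.06 ± 0.26 (edgeR adjusted p = 0.0191), with no overlap. Eef1b2 fell in vehicle cells (-0.95 ± 0.26), as did Eif3f (-1.17 ± 0.24), Eif4b (-0.85 ± 0.26), Eif4e2 (-0.83 ± 0.22) and Eif1ad (-0.83 ± 0.23), while in halofuginone cells these stood at -0.58 ± 0.33, -0.83 ± 0.37, -0.57 ± 0.44, -0.73 ± 0.35 and -0.65 ± 0.31 without the block. With the block, halofuginone cells also passed for Eif3f (-0.77 ± 0.28, edgeR adjusted p = 0.0162), Eif4e2 (-0.72 ± 0.26), Eif1ad (-0.63 ± 0.25), Eif1b (-1.39 ± 0.23), Eif4a2 (-0.91 ± 0.25) and Pabpc4 (-0.59 ± 0.26). Eef1g was at -0.41 ± 0.39 in halofuginone cells and -0.82 ± 0.27 in vehicle cells, and Eef1a1 at -0.19 ± 0.43 and -0.47 ± 0.28. Eef1d was the exception among elongation factors, at 1.20 ± 0.42 in halofuginone cells and 0.90 ± 0.34 in vehicle cells; it passed with the block in both (edgeR adjusted p = 0.000216 in halofuginone cells, 0.00101 in vehicle cells).

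The 9 members that were higher in heavy than in light polysomes of vehicle cells were all initiation factors by name, as are 40 of the 48 members. Eif4a3, better known as a core of the exon junction complex, had 284, 218 and 307 CPM in the heavy pool and 150, 63.0 and 75.9 CPM in the light pool, a fitted log2 change of 1.42 ± 0.36 (edgeR adjusted p = 0.0205). Eif2s1 (1.28 ± 0.22), Eif4a1 (1.23 ± 0.32), Eif3c (1.12 ± 0.31), Eif2b3 (1.07 ± 0.27), Eif3i (1.00 ± 0.25), Eif2b4 (0.96 ± 0.22), Eif3m (0.91 ± 0.22) and Eif2b2 (0.91 ± 0.21) were the others. Each of these 9 passed with the block in halofuginone cells as well, from 0.84 ± 0.24 for Eif2b2 to 1.49 ± 0.26 for Eif4a3. That block fit called 25.8% of all genes higher, and the share of all genes that passed in both fits was not computed. Beside Eif4a1, its paralog Eif4a2 was in vehicle cells at -0.73 ± 0.25 (edgeR adjusted p = 0.0587), and Eif4e, beside Eif4e2, stood at -0.29 ± 0.24. The medians were -0.50 for elongation with Pabpc1 and 0.51 for initiation in halofuginone cells, against 0.06 over all genes, and -0.88 and 0.55 in vehicle cells, against 0.03 over all genes. By library, the elongation median minus the initiation median was -0.99, -1.86 and -0.16 in halofuginone cells (set A, replicate 2, replicate 4) and -1.12, -1.50 and -1.49 in vehicle cells, so replicate 4 of the halofuginone pools stood apart. In halofuginone cells the calls fell to 0 without replicate 2 of the light pool or without the set A or replicate 4 heavy library, and to 1 without replicate 4 of the light pool. In vehicle cells they were 7 and 6 without replicates 2 and 4 of the light pool, 12 without the set A or replicate 2 heavy library, and 6 without the replicate 4 heavy library.

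**Figure D5:**
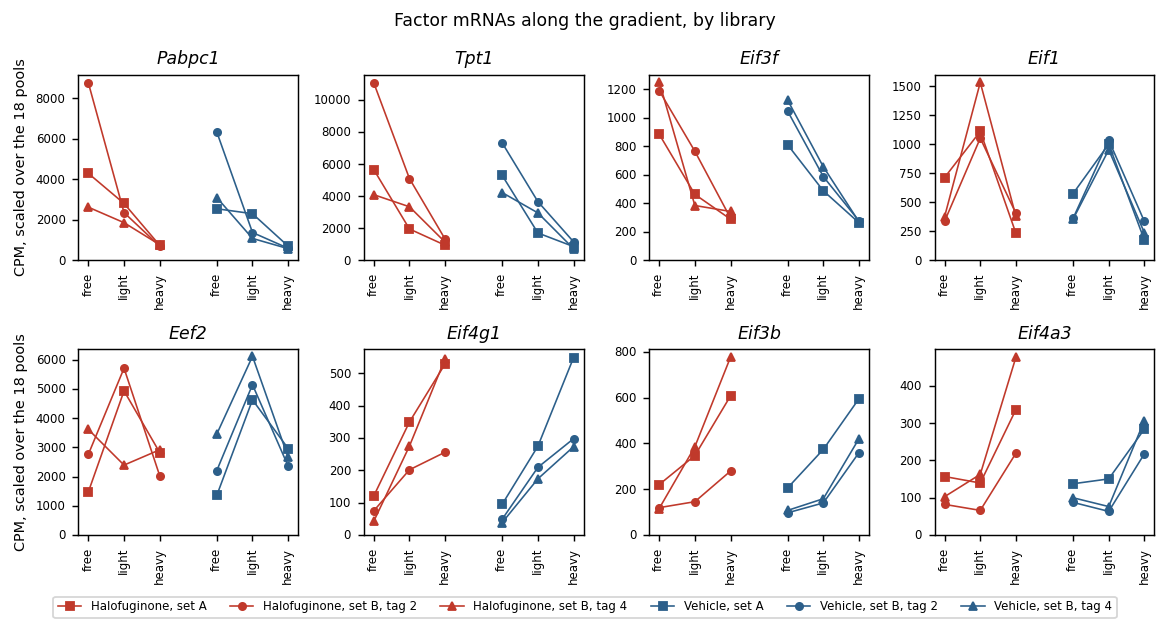
CPM of 8 factor mRNAs in the ribosome-free, light and heavy pools, scaled over all pools, 1 line per library series (halofuginone red, left in each panel; vehicle blue, right). Pabpc1, Tpt1 and Eif3f fall toward the heavy pool in both arms, Eif1 peaks in the light pool, and Eif4g1, Eif3b and Eif4a3 are highest in the heavy pool.

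Length of the coding region went with part of this order. Among the 48, Spearman's correlation of codon number with the heavy over ribosome-free value was 0.30 in halofuginone cells and 0.37 in vehicle cells, a description over genes measured in the same libraries. The 13 members under 300 codons had a median of -0.34 in halofuginone cells and -0.77 in vehicle cells, and the 35 longer ones 0.38 and 0.08. Over all genes tested with a coding length, the medians were -0.58 under 300 codons and 0.33 above in halofuginone cells, and -0.76 and 0.32 in vehicle cells. Pabpc1, with 636 codons, and Eif3f, with 361, lay low on the gradient in spite of their length, and Eif4h, with 248, and Eif6, with 245, lay high.

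The start sites of these mRNAs were read from RefSeq (build GRCm38.p6) to see which carry a pyrimidine run like that of TOP mRNAs, and 39 of the 48 had an entry. The windows below are examples, from some members at either end of the gradient and from the abundant elongation factors. Capitals mark a C followed by at least 5 further C or T, searched on the gene's strand from 20 bases before to 50 bases after the annotated start.
Eif3f, chr7:108934403-108934432, plus strand: gttctaggCTCTCTCTCTTTCTCggcaaga
Eef1a1, chr9:78481710-78481739, minus strand: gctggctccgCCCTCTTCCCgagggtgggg
Eef2, chr10:81176634-81176663, plus strand: gacgtcagcggtCTCTTCCgccgcagccgc
Eif4g1, chr16:20672716-20672745, plus strand: agcgcagctccgCCCTCTgcgccggtcacg
Eif3b, chr5:140419295-140419324, plus strand: ggcgcgcggtgacttctgggagtcggaagc
Eif3c, chr7:126566347-126566376, minus strand: ctgctcagagggactcggcagcttagctgg
The run of Eif3f is 15 bases long and starts 4 bases before the annotated start, and that of Eef1a1 is 10 bases long and starts 5 bases before it. In Eef2 the run of 7 bases begins at base 16 of the transcript, and in Eif4g1 a run of 6 begins at base 2, while the windows of Eif3b and Eif3c, both high in the heavy pool, hold none. Among members not printed, Eif4a2 (-1.74) and Eef1b2 (-1.69 for heavy over ribosome-free in vehicle cells) lay low and held no run. In Tpt1 (-2.91) a run of 6 begins only at base 41. Eif2b5 (0.84) has a run of 19 bases, and Pabpc1 had no entry. Such a run was found in 19 of the 39 members, or 48.7%, beside 48.5% of all genes in the table, so its frequency was that of the background. The members with a run had a median heavy over light value of -0.29 in vehicle cells and those without had 0.59, while for heavy over ribosome-free the medians were 0.08 and -0.02. The 8 initiation factors commonly classed as TOP mRNAs (Eif3a, Eif3e, Eif3f, Eif3h, Eif3k, Eif3l, Eif3m and Eif4b) had median heavy over ribosome-free values of 0.28 in halofuginone cells and 0.14 in vehicle cells, and 2 of the 8, Eif3f and Eif3h, were lower in the heavy pool past the test in each arm, against 12.6% of all genes in halofuginone cells and 17.7% in vehicle cells. Eif3e stood at -1.01 ± 0.51 in halofuginone cells and -1.06 ± 0.53 in vehicle cells without passing. In total RNA of set B, 2 of these 8 rose with halofuginone, against 33.1% of all genes, and 4 fell, against 36.9%, with a median of -0.18.

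Genes of the same machinery outside the 48 are given for comparison. Of 76 cytosolic ribosomal protein mRNAs tested, 53 were lower in the heavy than in the ribosome-free pool of halofuginone cells, against 12.6% of all genes. In vehicle cells 57 were lower, against 17.7% of all genes. Their medians were -1.80 in halofuginone cells and -2.21 in vehicle cells (Rps12, -4.53 ± 0.46 and -4.69 ± 0.51). With halofuginone in total RNA, none of the lists had a member past edgeR's test. The 19 regulators of initiation and elongation that were tested had a median of 0.10, with Eif4ebp1, an inhibitor of eIF4E, at 0.90 ± 0.24 and Eif2ak3, the eIF2alpha kinase PERK, at -0.62 ± 0.18 (edgeR adjusted p = 0.267 for both). The 15 other initiation and elongation subunits had a median of 0.21 and the 6 termination and recycling factors one of 0.56, with the release factor gene Etf1 at 1.12 ± 0.43. The 10 mitochondrial translation factors were at 0.18, with Tsfm at 0.42 ± 0.15, and 14 other TOP mRNAs at 0.22, with Npm1 at 0.68 ± 0.20. The ribosomal proteins were at 0.18, and within set B alone at 0.02, with 23 higher and 27 lower of 77, against 33.1% and 36.9% of all genes. Of 5 genes chosen to check the response to uncharged tRNA, Trib3 stood at 3.52 ± 0.75 and Ddit3 at 2.54 ± 0.70 (edgeR adjusted p = 0.267 for both) with all libraries, and all 5 rose within set B, against 33.1% of all genes.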

How the data were processed

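The authors deposited whole-number read counts per gene symbol for 24 libraries; per the labels' protocols, these were stranded mRNA libraries. The submitters' processing notes name build GRCm38.p5, featureCounts of Subread 1.5.0p3, the aligner STAR 2.5.2b and Trimmomatic 0.36. 0 columns belonged to no sample. Column headers name the arm but not the kind of RNA or which sample. Headers without fraction numbers were taken as total RNA, and the lowest, middle and highest fraction numbers as the ribosome-free, light and heavy pools. edgeR 4.0.16 (R 4.3.3) quasi-likelihood tests ran on the counts of all genes after filterByExpr, with trimmed-mean (TMM) scaling. Each fit held only the groups compared and no block, with Benjamini-Hochberg adjustment over all genes at 0.05. Simulated counts were fitted only for total RNA between arms and for heavy over ribosome-free in vehicle cells. They held no differences between sets or header tags, so they do not show how the fits behave with those. Differences between treatment effects used an interaction contrast. DESeq2 1.42.0, median-of-ratios scaling, other count filters, each library left out, the header tag as a block, and set B alone were alternatives. Lengths came from GENCODE M21. Ratios by header tag used CPM with 0.5 added.

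The members and lists were chosen with earlier results of these data known. Genes were named mainly from the elongation factors and Pabpc1, members past the test (up to 12 a direction), the 4 highest and 4 lowest, and paralog pairs. Of other lists, genes with the smallest p were named. Not all of these are given in every comparison. Header tags were taken to pair the pools, because deviations of same-tag libraries from their group means correlated over 0.1 in every pair: 0.362 to 0.781 for heavy pools between arms, 0.413 to 0.813 for light and 0.816 to 0.929 for ribosome-free pools, and 0.206 at the least for pools within an arm. In total RNA they did not (0.009 at the least). Depth was 10.3 to 24.97 megacounts a library.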

Additional observations from a re-analysis of the deposited data

How the results depend on the processing

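For halofuginone against vehicle, the count of members called stayed at 0 in the free, light and heavy pools and in both differences between effects under every alternative run, including the replicate block. In total RNA it was 5 with DESeq2, 41 in set B alone, 0 with the replicate block, 0 with set as a covariate, and 0 to 38 over fits that left out 1 library. For the fits that left out a library, here and below, the share of all genes called was not computed. Eif3k in total RNA, at 0.00 with all libraries, was -0.34 in set B alone and -0.39 without the halofuginone set A library. For the gradient, heavy over ribosome-free gave 12 members with DESeq2, 13 with the replicate block and 2 to 20 over left-out libraries in halofuginone cells, and 16 with DESeq2, 25 in set B alone and 4 to 27 over left-out libraries in vehicle cells. Heavy over light gave 12 with DESeq2, 7 with no filter, 29 with the replicate block, 0 in set B alone and 0 to 3 over left-out libraries in halofuginone cells, and 37 with the replicate block and 6 to 27 over left-out libraries in vehicle cells. The elongation median (with Pabpc1) minus the initiation median was -0.08 in total RNA, with -0.38 to 0.001 over left-out libraries, and 0.13 in heavy pools, with 0.0739 in set B alone and 0.0613 to 0.25 over left-out libraries. In the ribosome-free pool it was 0.19, with -0.0473 to 0.58. For heavy minus total it was 0.40, with 0.70 in set B alone and 0.22 to 0.65 over left-out libraries (0.22 without the halofuginone replicate 3 total RNA library, 0.23 without replicate 2, 0.65 without set A), and for heavy minus ribosome-free -0.10, with -0.43 to 0.22. For heavy over the other pools it stayed below 0 under every alternative, from -1.48 to -0.75. Leaving out Eif5a, Eif4a3, Eif1ad and Eif6 from the initiation factors moved it by less than the spread between libraries. The cause of these moves was not tested. With 3 libraries a group, and a set in which halofuginone headers name another dose, differences of moderate size could not be resolved with all libraries.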
